A study of Mus musculus with 9 samples.

Results

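A group of 10 genes of the RANK signalling route was followed in RAW264.7 cells, a virus-transformed macrophage line of the mouse whose cells become osteoclast-like under RANKL. They were taken by gene symbol from a table of 56691 genes and are the RANK receptor (Tnfrsf11a), 3 TRAF adaptors (Traf6, Traf3 and Traf2), the 5 NF-kB subunit genes (Nfkb1, Rela, Rel, Nfkb2 and Relb) and the gene of the inhibitor IkB-alpha (Nfkbia). Each symbol matched 1 gene, and all 10 were among the 11995 genes tested, which reached an FPKM of 1 in 3 or more libraries. FPKM scales a read count by exonic length and by library total, so levels of different genes can be compared on it. RNA was sequenced from 3 groups of 3 libraries: control cells without RANKL, cells given RANKL, and cells given RANKL with uridine (RANKL + UD). According to the methods RANKL was used at 50 ng/mL, the labels give 3 days of culture, and no UD dose is named for these libraries. All groups share the same cell line, and the labels number each library as a separate biosample. No library received UD without RANKL, so each comparison that includes UD is made on RANKL-treated cells.

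RANK is a receptor of the TNF receptor family and has no enzyme activity of its own. RANKL binding recruits TRAF6, which activates the TAK1 and IKK kinases, and IKK marks IkB-alpha for degradation so that dimers of p50 (from Nfkb1), p65 (Rela) and c-Rel (Rel) enter the nucleus. In the non-canonical branch TRAF3 and TRAF2 hold the kinase NIK low until a receptor is engaged, and NIK then drives the processing of p100 (from Nfkb2) to p52, the partner of RelB. Much of this signalling takes place on proteins, through phosphorylation, ubiquitination and movement into the nucleus, and the data here are RNA levels alone.

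The kB motif, the 10-base element to which NF-kB dimers bind, was searched as GGGRNNYYCC. In it R is A or G, Y is C or T and N is any base. Both strands of the promoter windows of the members were searched. The windows run from 250 bases before to 50 bases after the start site (RefSeq, GRCm38.p6). RefSeq windows were matched for 8 of the 10 members, in 10 windows, and Nfkb1 and Relb had no entry in the table used. Matches were found in 4 members, namely Traf3, Rel, Nfkb2 and Nfkbia, and none were found in the windows of Tnfrsf11a, Traf6, Traf2 and Rela. Of all 32851 promoter windows in the table, 8.46% hold at least 1 match and 0.186% hold 3 or more, with overlapping matches counted separately. Counted by gene, 9.55% have a match in at least 1 window. The windows printed here are 1 for each of the 4 members with a match, and that of the receptor gene as a strongly RANKL-responsive member without one. Each is written 5′ to 3′ on the strand of the gene, and capitals mark every base covered by a match.
Nfkb2 (chr19:46304487-46304786, + strand): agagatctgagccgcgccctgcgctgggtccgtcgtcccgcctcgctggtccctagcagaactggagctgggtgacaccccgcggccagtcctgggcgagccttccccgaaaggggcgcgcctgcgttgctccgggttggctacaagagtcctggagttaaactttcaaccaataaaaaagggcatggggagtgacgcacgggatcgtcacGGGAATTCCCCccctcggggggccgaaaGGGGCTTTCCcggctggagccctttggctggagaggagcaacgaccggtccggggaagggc
Nfkbia (chr12:55492598-55492897, − strand): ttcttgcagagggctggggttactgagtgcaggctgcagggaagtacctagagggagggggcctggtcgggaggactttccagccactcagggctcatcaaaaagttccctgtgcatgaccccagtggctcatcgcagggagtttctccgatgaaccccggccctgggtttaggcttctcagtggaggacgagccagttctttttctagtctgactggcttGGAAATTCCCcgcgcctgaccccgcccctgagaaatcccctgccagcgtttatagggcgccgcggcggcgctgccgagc
Rel (chr11:23770920-23771219, − strand): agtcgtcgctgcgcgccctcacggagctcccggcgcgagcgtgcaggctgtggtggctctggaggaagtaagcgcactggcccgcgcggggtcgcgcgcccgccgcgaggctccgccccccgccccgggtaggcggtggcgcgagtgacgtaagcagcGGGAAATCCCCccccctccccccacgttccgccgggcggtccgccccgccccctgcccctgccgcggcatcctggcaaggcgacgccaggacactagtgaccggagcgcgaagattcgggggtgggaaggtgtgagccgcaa
Traf3 (chr12:111166120-111166419, + strand): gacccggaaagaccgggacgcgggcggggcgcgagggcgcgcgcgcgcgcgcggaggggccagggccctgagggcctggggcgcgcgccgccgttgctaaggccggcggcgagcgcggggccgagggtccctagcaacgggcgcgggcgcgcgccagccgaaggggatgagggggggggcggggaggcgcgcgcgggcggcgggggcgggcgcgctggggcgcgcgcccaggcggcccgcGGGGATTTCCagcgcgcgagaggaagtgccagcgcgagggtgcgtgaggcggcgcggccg
Tnfrsf11a (chr1:105780473-105780772, + strand): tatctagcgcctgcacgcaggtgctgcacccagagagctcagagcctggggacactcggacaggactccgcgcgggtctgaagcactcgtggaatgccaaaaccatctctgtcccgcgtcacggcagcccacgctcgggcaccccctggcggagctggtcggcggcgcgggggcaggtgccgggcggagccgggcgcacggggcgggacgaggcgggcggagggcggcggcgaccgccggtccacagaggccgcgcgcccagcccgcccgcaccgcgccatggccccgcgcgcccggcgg

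The printed Nfkb2 window held 3 matches, of which the first pair overlap at 1 base offset (-39 to -30 and -38 to -29 from the start site) and the other lay at -11 to -2. Nfkb2 has 2 further start sites in the table. Their windows held 2 matches and 1 match, and the single match covers the same bases as one of those 2. In Nfkbia the match lay at -29 to -20, in Traf3 at -10 to -1, and in Rel a pair of overlapping matches covered -92 to -82. The members with a match include genes that were higher (Nfkb2 and Nfkbia) and lower (Rel and Traf3) in RANKL libraries. A match describes the letters of the window and was not tested as a binding site.

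Library totals ranged from 15951800 to 19746862 reads counted on genes, and the members had between 322 and 3853 reads in any library. All tests of single genes used edgeR's quasi-likelihood test on the counts in a single fit of the 9 libraries, scaled by TMM and with p-values adjusted by Benjamini-Hochberg over the 11995 genes. A gene is called higher or lower at an adjusted p under 0.05, and errors of log2 fold changes are standard errors. The osteoclast markers (9 genes, among them Acp5 and Ctsk) summed to 46.92 to 50.06 FPKM in control libraries, 2641 to 2844 in RANKL libraries and 1666 to 1703 in RANKL + UD libraries. The macrophage markers (7 genes) summed to 8873 to 9460, 2370 to 2600 and 2069 to 2197 FPKM in the same order. All 8 osteoclast markers tested were higher with RANKL and lower again in RANKL + UD against RANKL, and 5 of the 6 macrophage markers tested were lower in each of these comparisons, the exception being Cd68 in the former and Adgre1 in the latter, which were higher. Markers of other cell types (8 genes, among them markers of T cells, fibroblasts, osteoblasts, epithelium and endothelium) summed to at most 0.89 FPKM in any library, with the T cell marker Cd3e at 0 in all 9. These marker sums move with the groups compared, and in bulk RNA fewer cells of a type and less RNA per cell cannot be told apart. Their part in the results for the members was not tested.

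The first comparison, RANKL against control, asked how the expression of the route's own components stands in cells on the way to osteoclasts. With RANKL, 6 members were higher (Tnfrsf11a, Traf6, Traf2, Nfkb2, Relb and Nfkbia), 3 were lower (Traf3, Nfkb1 and Rel) and Rela did not pass the test. Over all tested genes 27.3% were called higher, 30.2% lower and 57.6% in either direction. The RANKL libraries lay wholly above the control libraries in FPKM for 6 members and wholly below for 3, beside 22.9% and 38.8% of all tested genes. The median log2 fold change was 0.31 over the members and -0.03 over all tested genes. The 3 largest fold changes belonged to Nfkb2, Tnfrsf11a and Nfkbia.

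The second comparison, RANKL + UD against RANKL, addressed the effect of UD on stimulated cells. Tnfrsf11a and Relb were lower, Traf3 was higher and the other 7 members did not pass the test. Over all tested genes 18.6% were called higher, 20.2% lower and 38.8% in either direction, beside 30.0% of the members. The RANKL + UD libraries lay wholly above the RANKL libraries in FPKM for 4 members (Traf6, Traf3, Nfkb1 and Nfkb2) and wholly below for 3 (Tnfrsf11a, Rela and Relb), beside 34.1% and 17.6% of all tested genes. The median log2 fold change was -0.001 over the members and 0.005 over all tested genes. In RANKL + UD against control, 5 members were higher (Tnfrsf11a, Traf6, Traf2, Nfkb2 and Nfkbia) and 2 lower (Nfkb1 and Rel), and the corresponding shares of all tested genes were 26.7% and 27.3%, or 54.0% in either direction. The same 5 lay wholly above and the same 2 wholly below control in FPKM, beside 29.5% and 30.4% of all tested genes. Traf3, Rela and Relb did not pass in that comparison. The comparisons share libraries, so their values are given side by side.

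The TMM factors of the RANKL libraries were 0.959 to 0.962 and those of the other libraries 1.01 to 1.03, and FPKM carries no such factor. With scaling by total counts alone, the median log2 fold change of all tested genes moved by -0.088 in RANKL against control and by 0.086 in RANKL + UD against RANKL. The share of higher genes among those called then moved from 47.5% to 36.8% and from 48.0% to 66.2%, while in RANKL + UD against control it was 49.4% and 49.1%. Differences of this size between RANKL + UD and RANKL therefore depended on the scaling, and the members they touch are named where their values are given.

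**Figure D1:**
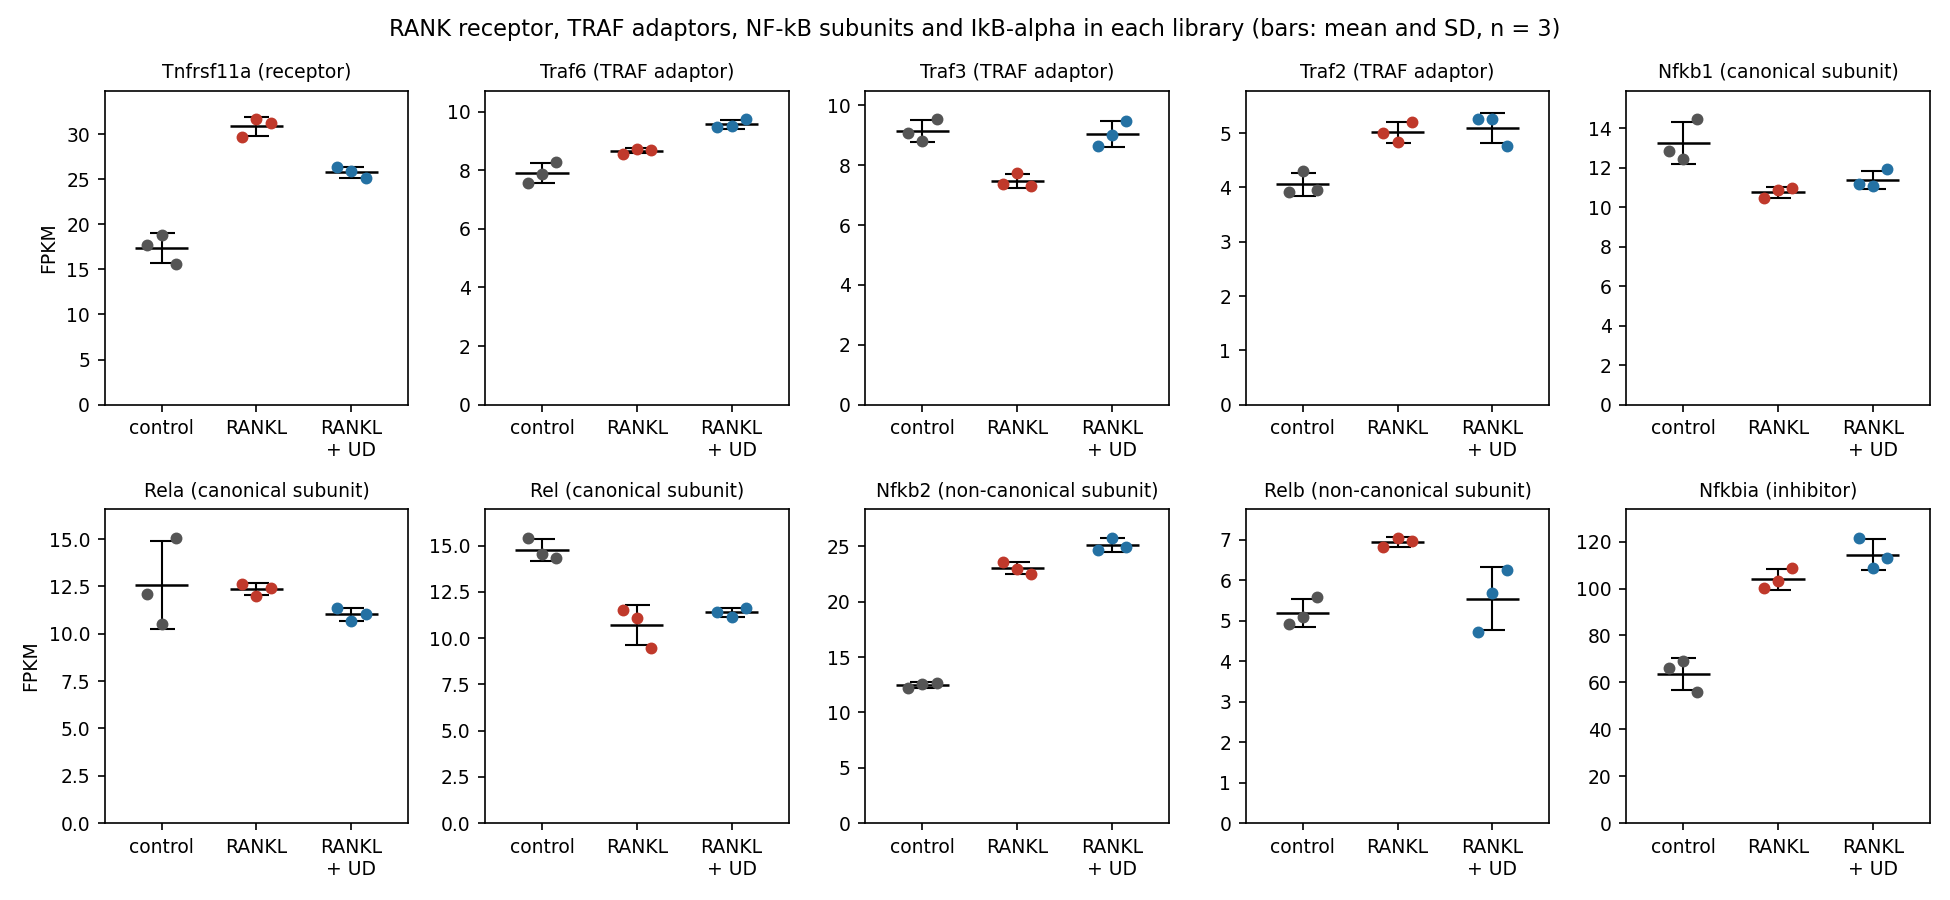
FPKM of the 10 members in each of the 9 libraries (points), with the mean and SD of each group of 3 libraries (bars) and a vertical axis that starts at 0 in every panel. Nfkb2 and Nfkbia stood at similar heights in RANKL and RANKL + UD, Tnfrsf11a stood between control and RANKL in RANKL + UD, and Traf3 and Relb stood near control.

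The receptor gene Tnfrsf11a (ENSMUSG00000026321, chromosome 1, 105708443 to 105775709, + strand), whose product RANK binds RANKL, had an FPKM of 17.70, 18.78 and 15.57 in the control libraries, 29.69, 31.67 and 31.25 in the RANKL libraries and 26.30, 25.86 and 25.08 in the RANKL + UD libraries. The 3 groups did not overlap, and RANKL + UD lay between the other two. With RANKL the gene was 1.89-fold higher (log2 fold change 0.92 ± 0.06 SE, edgeR adjusted p = 1.99e-11). RANKL + UD was lower than RANKL by a log2 fold change of -0.35 ± 0.06 SE (95% interval -0.47 to -0.23, edgeR adjusted p = 6.46e-05). It remained 1.48-fold above control (log2 fold change 0.57 ± 0.06 SE, edgeR adjusted p = 5.23e-08). No alternative setting ended any of these calls.

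Traf6 (ENSMUSG00000027164, chromosome 2, 101508774 to 101532014, + strand) encodes the adaptor and ubiquitin ligase that links RANK to the canonical branch. Its FPKM was 7.58, 7.86 and 8.28 in control, 8.57, 8.74 and 8.68 in RANKL, and 9.47, 9.50 and 9.75 in RANKL + UD. The groups stood in that order without overlap in FPKM, over a narrow range. The fold over control was 1.16 with RANKL (log2 fold change 0.22, edgeR adjusted p = 0.00232) and 1.21 with RANKL + UD (0.28, adjusted p = 0.00029). RANKL + UD against RANKL gave 0.06 (95% interval -0.06 to 0.18, edgeR adjusted p = 0.447), which did not pass. With total counts in edgeR the RANKL value was 0.13 and did not pass (adjusted p = 0.0555), while that of RANKL + UD against RANKL was 0.145 and passed (adjusted p = 0.0454). The latter also passed with limma on log2(FPKM + 1) (0.13, adjusted p = 0.0458).

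Traf3 (ENSMUSG00000021277, chromosome 12, 111132804 to 111233587, + strand), an adaptor that restrains NIK and the non-canonical branch, moved opposite to Traf6 with RANKL. Its FPKM was 9.09, 8.81 and 9.54 in control, 7.36, 7.74 and 7.32 in RANKL, and 8.63, 9.02 and 9.47 in RANKL + UD. The RANKL libraries lay below both other groups, which overlapped each other. Traf3 fell with RANKL to 0.869 of control (log2 fold change -0.20 ± 0.06 SE, edgeR adjusted p = 0.00753). In RANKL + UD it was 1.14-fold above RANKL (log2 fold change 0.19 ± 0.06 SE, edgeR adjusted p = 0.0188) and not distinguishable from control (-0.02, 95% interval -0.14 to 0.11, adjusted p = 0.854). The call of RANKL + UD against RANKL was lost without RANKL replicate 1 (0.18, edgeR adjusted p = 0.0549), RANKL replicate 3 (0.17, adjusted p = 0.0501) or RANKL + UD replicate 3 (0.15, adjusted p = 0.0965). Its lowest and highest adjusted p under the 17 alternatives were 0.00119 and 0.0965.

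Traf2 (ENSMUSG00000026942, chromosome 2, 25407994 to 25436952, − strand), which brings cIAP ubiquitin ligases to the TRAF3 complex, had the lowest mean FPKM of the members in every group. Its FPKM was 3.91, 4.30 and 3.96 in control, 5.00, 4.83 and 5.21 in RANKL, and 5.26, 5.26 and 4.77 in RANKL + UD. Both stimulated groups lay above control and overlapped each other. Traf2 was 1.31-fold higher with RANKL (log2 fold change 0.39 ± 0.09 SE, edgeR adjusted p = 0.00068) and 1.26-fold higher with RANKL + UD (0.33, adjusted p = 0.00345), with a difference between them of -0.06 (95% interval -0.24 to 0.12, adjusted p = 0.611).

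Nfkb1 and Rel, both of the canonical branch, were lower in both stimulated groups. Nfkb1 (ENSMUSG00000028163, chromosome 3, 135290416 to 135397308, − strand), the gene of p105 and p50, had an FPKM of 12.84, 12.47 and 14.47 in control, 10.45, 10.89 and 10.96 in RANKL, and 11.18, 11.06 and 11.93 in RANKL + UD. Every stimulated library lay below every control library. The fold of control was 0.863 with RANKL (log2 fold change -0.21, edgeR adjusted p = 0.00323) and 0.86 with RANKL + UD (-0.22, adjusted p = 0.00295). RANKL + UD against RANKL gave -0.005 (95% interval -0.12 to 0.12, edgeR adjusted p = 0.958), although the FPKM values, which carry no TMM factor, did not overlap.

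Rel (ENSMUSG00000020275, chromosome 11, 23686847 to 23720970, − strand), the gene of c-Rel, had an FPKM of 15.43, 14.54 and 14.31 in control, 11.53, 11.10 and 9.49 in RANKL, and 11.39, 11.13 and 11.65 in RANKL + UD. It had the largest fall of the members against control, and the stimulated groups overlapped each other but not control. Rel fell to 0.771 of control with RANKL (log2 fold change -0.38 ± 0.06 SE, edgeR adjusted p = 4.13e-05) and to 0.772 with RANKL + UD (-0.37, adjusted p = 5.24e-05). The difference between the stimulated groups was 0.003 (95% interval -0.13 to 0.14, edgeR adjusted p = 0.976).

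Rela (ENSMUSG00000024927, chromosome 19, 5687511 to 5698158, + strand), the gene of p65, passed no comparison. Its FPKM was 12.10, 10.50 and 15.08 in control, 12.62, 11.99 and 12.42 in RANKL, and 11.36, 10.68 and 11.02 in RANKL + UD. The control libraries spread more widely than those of either stimulated group and spanned both, while RANKL + UD lay below RANKL in every library. RANKL against control gave 0.07 (95% interval -0.14 to 0.27, edgeR adjusted p = 0.587) and RANKL + UD against control -0.18 (95% interval -0.39 to 0.03, adjusted p = 0.134). RANKL + UD against RANKL gave -0.25 ± 0.1 SE, with an edgeR adjusted p of 0.0537 (unadjusted p = 0.0211) in the fit of 9 libraries. Single control libraries decided the calls against control: without control replicate 3, RANKL was higher than control (0.22, edgeR adjusted p = 0.0333), and without control replicate 2, RANKL + UD was lower than control (-0.30, adjusted p = 0.0122). The difference of RANKL + UD from RANKL passed under 7 of 17 alternatives, with an adjusted p from 0.0086 with only the 6 libraries compared to 0.278.

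The non-canonical subunits Nfkb2 and Relb were both higher with RANKL but differed in RANKL + UD. Nfkb2 (ENSMUSG00000025225, chromosome 19, 46292759 to 46300824, + strand), the gene of p100 and p52, had an FPKM of 12.20, 12.61 and 12.70 in control, 23.60, 22.97 and 22.49 in RANKL, and 24.67, 25.80 and 24.92 in RANKL + UD. All stimulated libraries were far above control, with a spread within groups of at most 0.594 FPKM (SD). Nfkb2 rose 1.96-fold with RANKL (log2 fold change 0.97 ± 0.05 SE, edgeR adjusted p = 1.03e-12) and 2.01-fold with RANKL + UD (1.01, adjusted p = 6.17e-13). RANKL + UD against RANKL gave 0.04 (95% interval -0.07 to 0.14, edgeR adjusted p = 0.575), and with limma on log2(FPKM + 1), without TMM, 0.12 (adjusted p = 0.0331).

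Relb (ENSMUSG00000002983, chromosome 7, 19340142 to 19363363, − strand), the gene of the p52 partner RelB, had an FPKM of 4.92, 5.08 and 5.58 in control, 6.82, 7.05 and 6.96 in RANKL, and 4.71, 5.68 and 6.24 in RANKL + UD. The RANKL libraries were close together and above all others, while the RANKL + UD libraries ran from below to above the control range. Relb rose 1.42-fold with RANKL (log2 fold change 0.51 ± 0.1 SE, edgeR adjusted p = 0.000188) and in RANKL + UD was 0.751 of its RANKL level (log2 fold change -0.41 ± 0.1 SE, edgeR adjusted p = 0.00233). RANKL + UD against control gave 0.09 (95% interval -0.12 to 0.31, edgeR adjusted p = 0.466).

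Nfkbia (ENSMUSG00000021025, chromosome 12, 55536195 to 55539432, − strand), the gene of IkB-alpha and itself a well known NF-kB target, was the most abundant member in every library. Its FPKM was 66.01, 69.07 and 56.07 in control, 100.04, 103.10 and 108.89 in RANKL, and 121.74, 108.83 and 112.84 in RANKL + UD. Both stimulated groups lay above control and overlapped each other. Nfkbia rose 1.73-fold with RANKL (log2 fold change 0.79 ± 0.07 SE, edgeR adjusted p = 1.59e-09) and 1.8-fold with RANKL + UD (0.85, adjusted p = 6.29e-10). The difference between the stimulated groups was 0.05 (95% interval -0.08 to 0.19, edgeR adjusted p = 0.561).

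**Figure D2:**
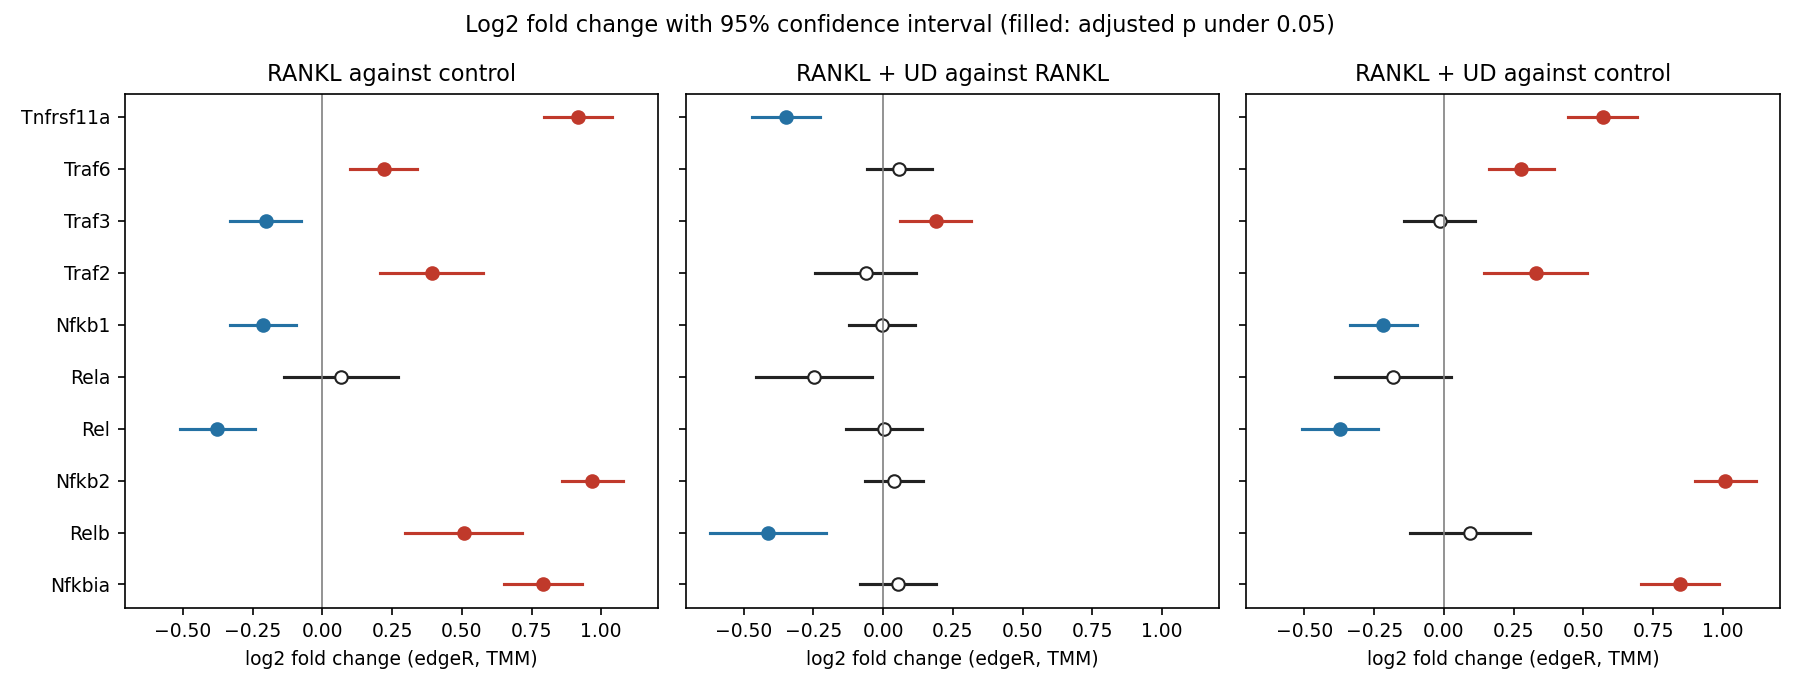
Log2 fold changes of the 10 members in the 3 comparisons (1 panel each) with 95% intervals as horizontal lines, from the edgeR fit, where filled points passed an adjusted p of 0.05 and open points did not. Against RANKL, the RANKL + UD values passed for Tnfrsf11a (-0.35), Relb (-0.41) and Traf3 (0.19) alone.

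Ordered by mean FPKM, Nfkbia and Tnfrsf11a were the 2 most abundant members in every group. In control libraries they were followed by Rel, Nfkb1, Rela and Nfkb2, whose neighbouring ranges overlapped, then by Traf3, Traf6, Relb and Traf2, each separate from the one above. In RANKL libraries Nfkb2 moved to the third place, separate from Rela below it, and Traf6 stood above Traf3. In RANKL + UD libraries the ranges of Tnfrsf11a and Nfkb2 overlapped, as did those of Nfkb1, Rel and Rela, those of Traf6 and Traf3, and those of Relb and Traf2.

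Ratios within a library are free of the scaling between libraries. The ratio of Nfkb2 to Nfkb1 was 0.95, 1.01 and 0.878 in control, 2.26, 2.11 and 2.05 in RANKL, and 2.21, 2.33 and 2.09 in RANKL + UD. The p100 gene thus went from about the level of the p105 gene to more than 2 times that level in both stimulated groups, which overlapped. The ratio of Traf3 to Traf6 was 1.12 to 1.2 in control, 0.859, 0.886 and 0.843 in RANKL, and 0.911, 0.949 and 0.971 in RANKL + UD. None of these 3 groups overlapped, and RANKL + UD stood between the others. With 3 libraries against 3, a two-sided exact permutation test cannot go below 0.1, the value reached by all comparisons of this ratio and by both stimulated groups against control for Nfkb2 to Nfkb1 (0.15 after adjustment over the 12 tests of ratios).

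The ratio of Relb to Rela was 0.42 ± 0.0581 (SD, n = 3) in control, 0.563 ± 0.0239 in RANKL and 0.504 ± 0.0795 in RANKL + UD. RANKL lay above control (exact permutation p = 0.1), whereas RANKL + UD overlapped both other groups. Nfkbia relative to the sum of the 5 subunit genes went from 1.1 ± 0.179 (SD, n = 3) in control to 1.63 ± 0.106 in RANKL and 1.78 ± 0.127 in RANKL + UD, and the stimulated groups overlapped (exact permutation p = 0.3). The summed FPKM of the 5 subunit genes was 58.3 ± 3.54 (SD, n = 3), 63.8 ± 1.36 and 64.5 ± 1.23 in the same order. Unlike the ratios, that sum depends on the scaling between libraries, and FPKM carries no TMM factor. Within that sum Nfkb2 took 21.5% in control, 36.1% in RANKL and 39.0% in RANKL + UD. The share of Rel went from 25.4% to 16.8% and 17.7%, and that of Nfkb1 from 22.7% to 16.9% and 17.7%. The share of Relb was 8.91%, 10.9% and 8.59%, and that of Rela 21.4%, 19.4% and 17.1%.

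**Figure D3:**
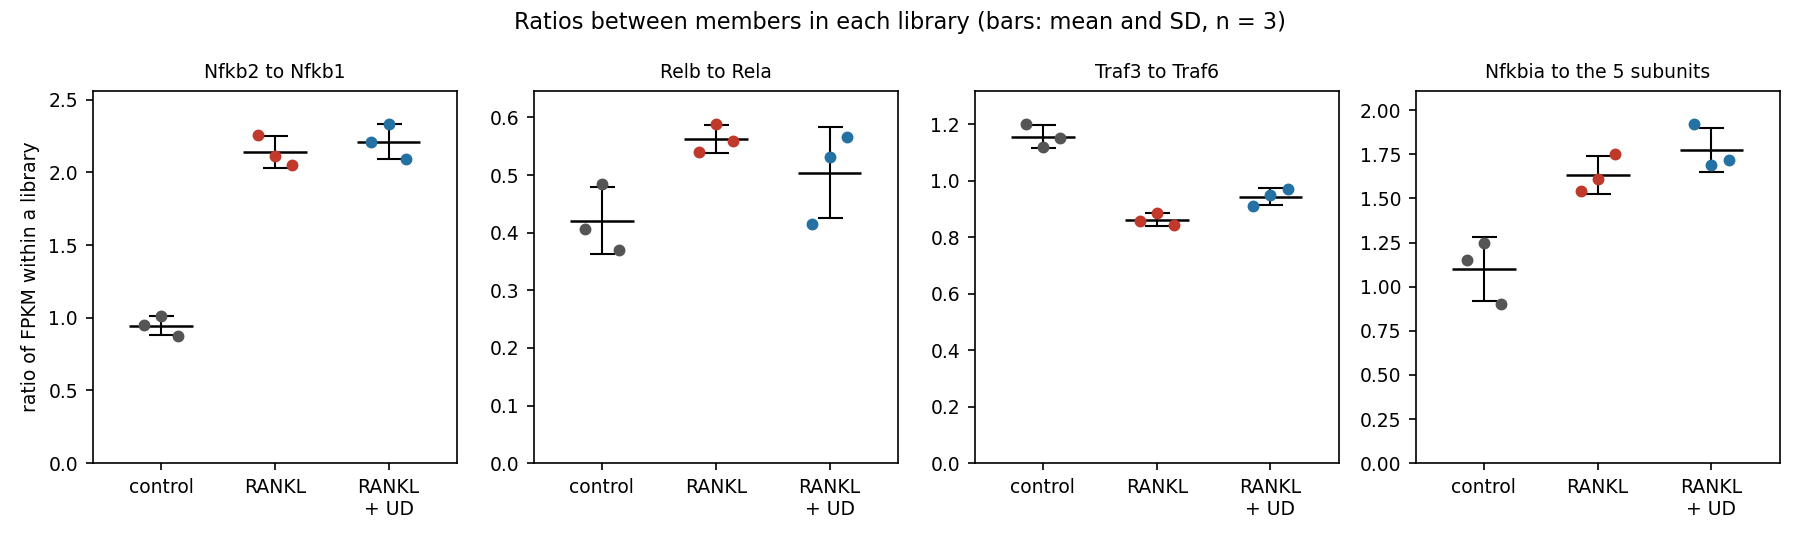
Ratios of FPKM between members within each library (points), with the mean and SD of each group of 3 libraries (bars) and axes that start at 0. Nfkb2 to Nfkb1 was 0.878 to 1.01 in control and 2.05 to 2.33 in the stimulated libraries, and Traf3 to Traf6 stood in 3 separate bands.

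Around the members, 5 lists of genes of the same route were counted. Of the receptor side, 9 of 11 listed genes were tested, and 6 were higher and 2 lower with RANKL (median log2 fold change 0.66). The ligand gene Tnfsf11 and the decoy receptor gene Tnfrsf11b were not expressed enough to test. The largest rises were those of Traf1, an NF-kB-inducible TRAF (log2 fold change 1.33), and Sqstm1, the gene of the scaffold p62 that binds TRAF6 (1.05), and the falls were those of Tifa, a TRAF6-binding adaptor (-2.25), and Traf7 (-0.66). In RANKL + UD against RANKL no gene of this list was higher and 3 were lower, namely Sqstm1 (-1.02), the RANK adaptor gene Gab2 (-0.44) and Traf5 (-0.31), with a median of -0.14. Sqstm1 had an FPKM of 117.74, 117.97 and 126.93 in control, 226.65, 238.32 and 240.32 in RANKL, and 120.61, 123.73 and 124.52 in RANKL + UD. Its RANKL libraries stood apart from both other groups, which overlapped (0.03 in RANKL + UD against control, edgeR adjusted p = 0.668).

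Of the 10 kinase genes, 2 were higher and 4 lower with RANKL (median -0.15). Ikbkg, the gene of the IKK regulatory subunit NEMO, rose (0.48), as did Tab3 of the TAK1 complex (0.29). Ikbke, an IKK-related kinase gene, fell most (-1.94), followed by Map3k14, the gene of NIK (-1.004). The catalytic IKK genes differed, with Ikbkb lower (-0.34) and Chuk at 0.13 without passing (edgeR adjusted p = 0.0539). Map3k14 had an FPKM of 2.38, 2.43 and 2.95 in control, 1.30, 1.24 and 1.09 in RANKL, and 1.76, 1.61 and 1.41 in RANKL + UD. Its RANKL libraries lay below both other groups, and the difference of RANKL + UD from RANKL (0.31, edgeR adjusted p = 0.0764) did not pass. In RANKL + UD against RANKL 2 kinase genes were higher, Ikbke (0.25) and Map3k7, the gene of TAK1 (0.18), and none was lower. That count of 2 was 1 to 5 over the 17 alternatives, with 5 under total counts. It was 1 with RLE size factors, no filter or DESeq2. Leaving out control replicate 1 or 2, RANKL replicate 2 or 3, or RANKL + UD replicate 2 also gave 1. Without RANKL replicate 3 a kinase gene was lower. With RANKL against control, 1 kinase gene in place of 2 was higher without RANKL replicate 2, and 1 was higher and 6 lower with total counts or limma.

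The other IkB genes split in direction. With RANKL, Bcl3 (0.64) and Nfkbie, the gene of IkB-epsilon (0.38), were higher, and Nfkbiz (-1.68) and Nfkbid (-0.60) were lower. Nfkbie was lower in RANKL + UD than in RANKL (-0.25, edgeR adjusted p = 0.0192), and no other gene of the 5 passed. No gene of the list was lower in that comparison under 7 of 17 alternatives, among them leaving out RANKL replicate 2 or 3 or RANKL + UD replicate 2 or 3. The RANKL libraries overlapped control for Bcl3, and 1 gene in place of 2 was higher with RANKL without control replicate 1 or RANKL replicate 2, or with limma.

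Among the 11 genes of ubiquitin enzymes and their partners, 5 were higher and 5 lower with RANKL (median 0.07), and with total counts or limma 3 were higher and 5 lower. Tnfaip3, the gene of the deubiquitinase A20 that restrains NF-kB, rose (0.85), as did Birc2, the gene of the TRAF-bound ligase cIAP1 (0.55). The falls were largest for Otulin (-0.59), which removes linear ubiquitin chains, and Sharpin (-0.56), a subunit of the ligase that makes them. In RANKL + UD against RANKL, Birc2 was the one gene that was higher and 3 were lower, among them Tnfaip3 (-0.39) and the IkB ubiquitin ligase gene Btrc (-0.31). Btrc was low, and its libraries of these groups overlapped (mean FPKM 1.3 in RANKL and 1.11 in RANKL + UD). Birc2 had an FPKM of 16.71, 16.65 and 15.84 in control, 22.70, 23.31 and 21.66 in RANKL, and 33.09, 33.93 and 34.03 in RANKL + UD. It was highest in RANKL + UD, with no overlap between any of the groups (0.49 ± 0.05 SE against RANKL, edgeR adjusted p = 1.26e-07). The count of higher genes in this comparison was 1 to 4 over the 17 alternatives, with 4 under total counts. It was 3 with limma on log2(FPKM + 1), and 2 with no filter or without control replicate 1 or 3.

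Of 18 genes widely named as NF-kB targets in macrophages, 17 were tested. With RANKL 11 were lower and 3 higher, beside 30.2% and 27.3% of all tested genes. Their median log2 fold change was -0.67. The falls were largest for Ptgs2, the gene of COX-2 (-3.50), and the chemokine gene Cxcl2 (-3.01), and the rises for Nos2 (2.39) and Il1rn, the interleukin-1 receptor antagonist gene (1.89). Tnf was lower (-1.40). The members split, with Nfkb2, Relb and Nfkbia, also known as NF-kB targets, higher and Nfkb1 (-0.21) and Rel (-0.38) lower. In RANKL + UD against RANKL 5 targets were lower and 3 higher (median of the targets -0.15), beside 20.2% and 18.6% of all tested genes. Nos2 (-1.36) and Il1rn (-0.92) had the largest falls and Cxcl10 (1.26) and Cd40 (0.74) the largest rises. Cxcl10 was low, with a mean FPKM of 2.4 in control, 0.39 in RANKL and 0.99 in RANKL + UD. So were Cd40 (2.15, 0.8 and 1.42) and Nos2 (0.48, 2.4 and 0.99), in the same order. Ptgs2 had an FPKM of 11.10, 10.82 and 10.80 in control, 0.83, 1.12 and 0.77 in RANKL, and 0.69, 0.87 and 0.73 in RANKL + UD, so the stimulated groups overlapped each other at a low level.

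**Figure D4:**
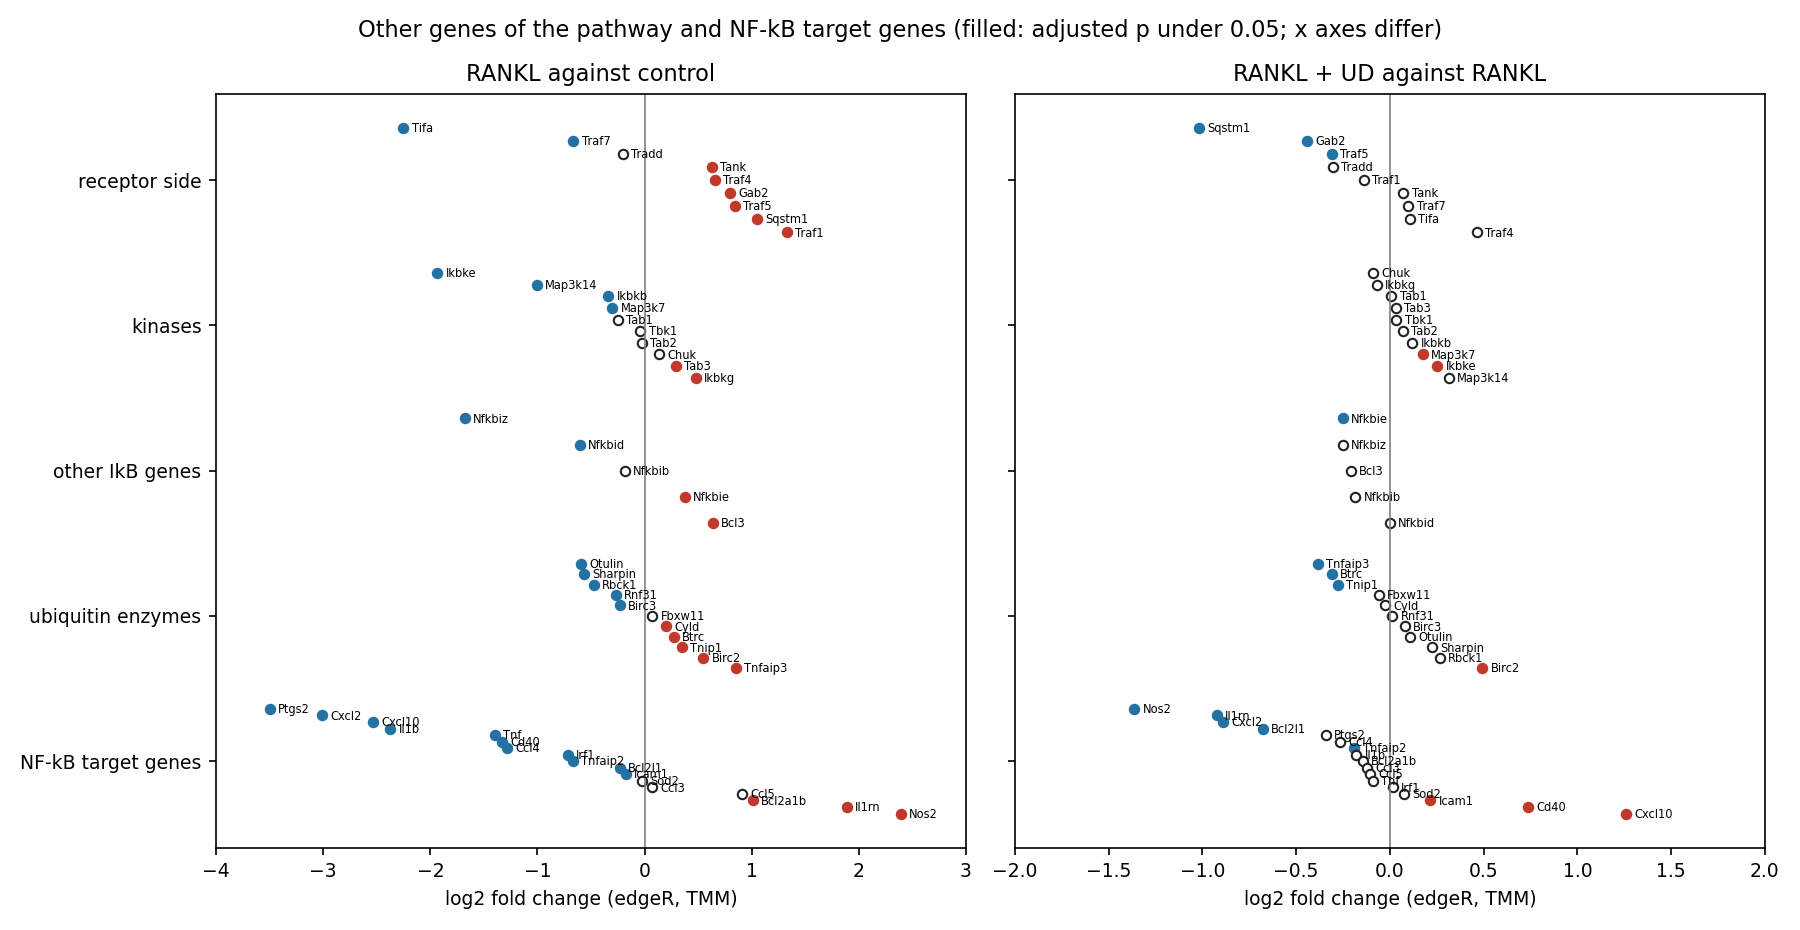
Log2 fold changes (horizontal axis, with a different range in each panel) of every tested gene of the 5 lists around the members, 1 labelled point per gene, for RANKL against control on the left and RANKL + UD against RANKL on the right. Filled points passed an edgeR adjusted p of 0.05, in red where higher and in blue where lower, and of the 17 NF-kB target genes 11 are blue and 3 red on the left and 5 are blue and 3 red on the right.

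The genes whose levels followed each member most closely were ranked by Pearson's r of log2(FPKM + 1) over the 9 libraries, which fall into the same 3 groups for every gene. For Nfkb2 they were Rab15, Hsp90aa1 and Abcb4 (r = 0.998 each), with 505 genes above 0.95, and for Nfkbia Cdv3 (0.999), Gga2 (0.996) and Ppp2r3c (0.995), with 283. Tnfrsf11a was closest to Dpys (0.993), Pkn3 (0.991) and Dnajc21 (0.99), and 350 genes exceeded 0.95. Relb had few such genes, 6 in all, led by Kdm4b (0.968), Cd99l2 (0.965) and Gm31718 (0.958). Kdm4b, a histone demethylase gene, had a mean FPKM of 5.55 in control, 8.96 in RANKL and 5.8 in RANKL + UD. Traf3 was closest to Ddx24 (0.987), Mis18a (0.985) and Gtse1 (0.983), and Traf6 to Bpnt1 (0.993), Slc43a3 (0.984) and Topors (0.983). Traf2 was closest to Eif1b (0.981), Mfsd11 (0.979) and Sccpdh (0.978), Nfkb1 to Pofut2 (0.989), Grk2 (0.987) and Crtc3 (0.978), and Rel to Dmxl2 (0.991), Gm21811 (0.988) and Top2b (0.981). For Rela no gene exceeded 0.95, and the closest were Tubb2b (0.882), Rpl17-ps10 (0.865) and Gm12254 (0.862).

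Some members overlap another gene in the deposited coordinates, and the use of strand in counting is not given in the sources used here. Nfkb2 overlaps Psd (mean FPKM 1.81) and 4833438C02Rik (3.36), Traf3 overlaps 4930595D18Rik (0.226) and Traf2 overlaps Gm13433 (0.987), all on the opposite strand. Nfkb1 overlaps Gm43430 (0.0322) on its own strand. Every one of these neighbours had a lower mean FPKM than the member it overlaps.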

How the data were processed

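The data are RNA-seq values of 9 libraries of RAW264.7 cells, 3 for each of control, RANKL and RANKL + UD, and groups were taken from the sample labels. The deposited table names the RANKL libraries as the model group. The authors deposited raw counts of reads per gene, without normalization, and FPKM values that they made from these counts, the exonic length and the library total. Recomputation from the counts returned the deposited FPKM to its 2 decimals. The aligner, the counting tool and their strand setting are not given in the sources used here. The submitters' processing notes name mm10. However, 1435 of 52073 shared genes and 0 of the 10 members have the coordinates of the GRCm38 annotation, so gene positions are given as deposited and their build is uncertain, while promoter windows carry RefSeq positions on GRCm38.p6.

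Counts were tested with edgeR 4.0.16 in R 4.3.3, using TMM factors and a quasi-likelihood fit of all 9 libraries. The common dispersion was 0.00401, and standard errors were derived from the F statistic. The study names DESeq2, which was run as an alternative (1.42.0). The other alternatives were RLE size factors, total counts, no filter on FPKM, limma 3.58.1 on log2(FPKM + 1) and log2(FPKM + 0.1), a block for the replicate number, a fit of only the 6 libraries compared, and leaving out each library in turn, which made 17. The fits were tested on simulated counts with as many genes raised as lowered, which cannot speak to the dependence on scaling. Ratios were compared by exact two-sided permutation tests with Python 3.11.15, pandas 2.3.3, numpy 2.4.6 and scipy 1.17.1. No pair of replicates agreed within sampling noise (chi-square per degree of freedom 2.83 to 8.22), so each library counted as 1 replicate.

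Genes named in the text are the 10 members, the 2 largest rises and 2 largest falls among the called genes of each list with genes that complete a role, and the 3 genes most correlated with each member. Members and lists were chosen with earlier results of these data known, so counts over a list are descriptions. Libraries were grouped by label only, no batch is named in the labels, and p-values measure the spread between cultures of 1 cell line. Metabolite, protein and animal data of the study were not analysed here.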

Additional observations from a re-analysis of the deposited data

How the results depend on the processing

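Of 510 member values under the 17 alternatives, 468 kept their direction and their side of the threshold, 4 lost a call, 14 gained one and 24 changed sign. All 24 sign changes were in values near 0 that passed no test, and the cause was not tested. With total counts 2 members and 3350 genes were higher in RANKL + UD against RANKL, and with limma 3 members were higher at either pseudocount and 1556 (pseudocount 1) or 1536 (0.1) genes lower. The 4 lost calls were those of Traf3 (without 1 of 3 single libraries) and of Traf6 (total counts). Without single libraries, 0 to 1 members were higher in RANKL + UD against RANKL. Among values that changed sign, Rel in RANKL + UD against RANKL was -0.01 with RLE and with DESeq2 and -0.076 to 0.061 without single libraries. Nfkb1 in the same comparison was 0.082 with total counts, 0.00058 with no filter, 0.074 and 0.08 with limma and -0.039 to 0.019 without single libraries, and Traf2 was 0.024 with total counts and 0.019 and 0.023 with limma. Rela in RANKL against control was -0.021 with total counts, -0.01 and -0.009 with limma and -0.053 to 0.217 without single libraries. In RANKL + UD against control, Traf3 was 0.004 with no filter and -0.049 to 0.016 without single libraries, and Relb -0.00074 to 0.199 without single libraries.

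The replicate numbers were not taken as pairs. Same-numbered libraries of different groups had correlations of their deviations from -0.0296 to 0.0973 in 9 pairs, beside -0.102 to 0.0644 in 18 other-numbered pairs. Those between replicates numbered 1 (0.0746 to 0.0973) were above every other-numbered pair. In all, 6 of 9 libraries correlated best with their own number. Whether the numbers mark a pairing was not tested. With the replicate block, 2347 genes were higher and 2518 lower in RANKL + UD against RANKL, beside 2233 and 2418 without it, and Rela gained a call (-0.25, edgeR adjusted p = 0.0286), the one member call the block changed. Depth limits little here, since each member had at least 322 reads, but with 3 libraries a group the intervals of the uncalled members in RANKL + UD against RANKL still allow log2 differences of up to about 0.19 (upper bound, Nfkbia), and of -0.46 for Rela.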
